A study of Mus musculus with 5 samples.

Results

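Among the STAT3 regions of dendritic cells treated with the histone deacetylase inhibitor SAHA, 1329 of 8552 lay at a transcription start and overlapped no STAT3 region of cells given diluent. They were chosen from the authors' deposited list of STAT3 regions called against IgG in the SAHA library. A region was taken when it overlapped none of the 3507 regions of the diluent list and its midpoint was within 1 kb of the start that the list gives for its assigned gene. Both the presence of a region in 1 list and its distance from the start thus served to choose the set, and neither is tested below. The set lay at 1306 genes. Of these, 23 genes had 2 such regions each and none had more. A single SAHA region assigned to Ido1 was to be left out, but it lay farther than 1 kb from its start, so leaving it out removed 0 regions. For 196 of the regions (14.7%) the assigned gene has a predicted or placeholder name.

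The groups were STAT3 in SAHA, H3K4me3 in SAHA, STAT3 in diluent, H3K4me3 in diluent and IgG in diluent, with 1 chromatin immunoprecipitation sequencing library each. All came from bone marrow of C57BL/6 female mice aged 10 weeks, grown for 7 days in GM-CSF and IL-4 (10 ng/mL each) and selected for CD11c to 95% purity, per the labels. SAHA, at a dose labelled 500 nm, or diluent was then present for 12 hours. The labels give the same culture protocol for the H3K4me3 and STAT3 libraries, and the number of pooled animals is not stated in them. Whether these libraries came from the same culture or animals is not known here. IgG from diluent cells served as control in both conditions, and no IgG library from SAHA cells was analysed here. With 1 library per group there is no replicate check on any difference between SAHA and diluent, and no p-value is given for one. The 95% intervals cover counting error only. A region present in fewer cells and a weaker signal per cell cannot be told apart in these bulk libraries.

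STAT3 is a transcription factor that Janus kinases phosphorylate at cytokine receptors, after which it enters the nucleus and binds DNA as a dimer. In dendritic cells it acts downstream of interleukin-6 and interleukin-10 and is known for restraining maturation and inflammatory cytokine production. H3K4me3 is a histone methylation mark that covers the starts of active genes, often as a block that reaches downstream of the start. SAHA (vorinostat) inhibits histone deacetylases, enzymes that remove acetyl groups from histones and from other proteins, STAT3 among them.

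Filtered tags, the tags left after the caller removed duplicates, numbered 17810183 in the SAHA STAT3 library and 25013431 in the diluent STAT3 library, so the library with more listed regions was the shallower one. The H3K4me3 libraries had 21428355 filtered tags in SAHA and 22420200 in diluent, and the IgG library had 18925827. H3K4me3 lay within 1 kb of a listed start of all 12 dendritic cell marker genes that have one, in both libraries, among them Itgax, Flt3, Irf8, Zbtb46 and Ciita. It lay there for 8 of 8 macrophage and monocyte markers, 2 of 6 T cell markers, 1 of 5 B cell markers and 1 of 3 NK cell markers, again in both libraries. It was listed at no start of Cd3d, Cd4 or Pax5.

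The promoters below belong to the highest-scoring regions of the set whose genes have a single RefSeq promoter window, and show what letters lie under strong SAHA-only STAT3 regions. Zmpste24 comes first because its window, unlike the other 4, holds a STAT motif. Each window runs from 250 bases before to 50 bases after the RefSeq start (build GRCm38.p6). Capitals mark the STAT motif with a 4-base spacer (TTC and GAA around any 4 bases), the ETS motif (CCGGAAG), the GC box (GGGCGG) and the CCAAT box (CCAAT), on either strand. The windows are chr4:121098161-121098460 (minus strand), chr11:83064862-83065161 (plus), chr7:99141095-99141394 (minus), chr11:29172726-29173025 (plus) and chr2:31572401-31572700 (plus).
Zmpste24: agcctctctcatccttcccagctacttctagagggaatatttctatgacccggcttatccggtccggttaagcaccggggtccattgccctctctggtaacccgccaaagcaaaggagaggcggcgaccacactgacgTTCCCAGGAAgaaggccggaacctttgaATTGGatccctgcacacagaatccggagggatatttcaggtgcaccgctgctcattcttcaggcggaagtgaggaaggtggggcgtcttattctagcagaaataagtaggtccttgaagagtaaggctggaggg
Slfn2: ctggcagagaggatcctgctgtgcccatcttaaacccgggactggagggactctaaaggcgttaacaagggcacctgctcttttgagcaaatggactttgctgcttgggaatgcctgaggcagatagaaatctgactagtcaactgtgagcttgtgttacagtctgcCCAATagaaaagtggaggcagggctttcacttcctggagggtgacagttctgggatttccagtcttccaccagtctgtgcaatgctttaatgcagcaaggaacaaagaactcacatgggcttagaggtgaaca
Uvrag: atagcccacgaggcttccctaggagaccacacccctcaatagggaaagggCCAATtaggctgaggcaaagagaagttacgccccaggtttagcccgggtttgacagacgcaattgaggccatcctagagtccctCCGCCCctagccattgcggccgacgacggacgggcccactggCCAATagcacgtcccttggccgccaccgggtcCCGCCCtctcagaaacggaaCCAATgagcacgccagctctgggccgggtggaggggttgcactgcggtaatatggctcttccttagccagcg
Smek2: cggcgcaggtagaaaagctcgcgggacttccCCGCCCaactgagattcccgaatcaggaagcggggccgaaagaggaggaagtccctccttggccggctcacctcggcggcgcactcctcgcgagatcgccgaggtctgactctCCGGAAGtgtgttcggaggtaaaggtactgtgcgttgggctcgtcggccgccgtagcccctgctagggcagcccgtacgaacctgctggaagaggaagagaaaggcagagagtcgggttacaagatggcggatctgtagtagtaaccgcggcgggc
Fubp3: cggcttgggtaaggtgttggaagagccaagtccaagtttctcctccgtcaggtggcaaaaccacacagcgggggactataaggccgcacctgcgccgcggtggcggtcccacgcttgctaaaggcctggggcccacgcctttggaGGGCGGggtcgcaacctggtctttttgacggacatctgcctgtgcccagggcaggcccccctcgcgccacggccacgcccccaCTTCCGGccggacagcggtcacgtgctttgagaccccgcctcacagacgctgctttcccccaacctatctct

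In the Zmpste24 window the STAT motif is TTCCCAGGAA, and an inverted CCAAT box follows it. The Slfn2 and Uvrag windows have CCAAT boxes, and the Uvrag window also has GC boxes. The Smek2 and Fubp3 windows have an ETS motif and a GC box. If the listed start is the RefSeq start, the STAT3 region covers the whole window at Zmpste24, Slfn2, Uvrag and Fubp3. At Smek2 the region ends upstream of the start, so its letters lie mostly outside the window.

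Motifs of the STAT kind were about as frequent in the whole set as in promoters at large. The canonical STAT motif (TTCNNNGAA) was in 7.17% (95% interval 5.42 to 9.28%) of the 739 set promoters with 1 window, in 13.7% (9.04 to 19.5%) of 183 promoters with diluent-only STAT3 regions and in 7.86% of 14731 promoters in all. The form with a 4-base spacer was in 5.68%, 10.4% and 6.48% of the same promoters. Among the 299 set promoters whose whole window a region covers, each of the 2 forms was in 7.36%. The GC box was in 69.7% of set promoters, 53.6% of diluent-only promoters, 67.8% of 7298 promoters of genes with H3K4me3 over a start and 45.3% of all. The ETS motif was in 21.2% of set promoters, 20.2% of diluent-only promoters, 19% of promoters with H3K4me3 and 11.8% of all. The AP-1 motif (TGANTCA) was in 3.92%, 7.65%, 4.63% and 7.09%, and the TATA box (TATAAA) in 6.09%, 9.84%, 7.04% and 14.3%, in the same order. The median GC content was 62% (median interval 61.3 to 62.7%) in the set, 57.3% (55 to 59.3%) in diluent-only promoters and 61.3% in promoters with H3K4me3. These values lay near those of H3K4me3-marked promoters, and the motif matches are letters in a window, not mapped binding sites.

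The authors' score of a region, which ranks regions within 1 list, had a median of 38.9 in the set (lowest 30, quartiles 33 and 49.9, highest 143). The lowest score listed was also 30, so many of the regions sat near the limit of the list. Scores under 35 were held by 471 regions (35.4%), scores of at least 50 by 327 (24.6%) and scores of at least 100 by 13 (0.978%). In the same list the median was 34.9 (highest 242) for the 6987 SAHA-only regions with midpoints farther from the start and 41.8 for the 85 start regions that overlap a diluent region. The regions of the set were 396 to 2140 bp long, with a median of 723 bp, against a median of 595 bp for the farther SAHA-only regions.

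**Figure D1:**
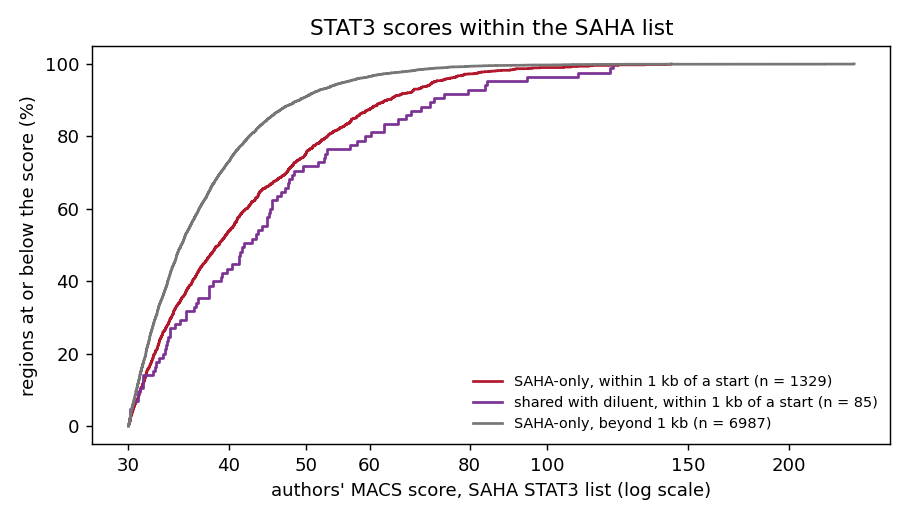
Cumulative share of regions (%, vertical axis) at or below each STAT3 score (authors' MACS score, horizontal log axis) in the SAHA list, for SAHA-only regions at starts (red), start regions shared with diluent (purple) and SAHA-only regions beyond 1 kb (grey). The red curve, with a median of 38.9, lies between the purple curve (41.8) and the grey curve (34.9).

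The 12 highest-scoring named genes were led by proteins of the lysosome and the nuclear envelope. Clcn7, the lysosomal chloride and proton exchanger, had the highest score, 143, at chromosome 17, 25269562 to 25271491 (mm9), a region of 1930 bp that covers the start. Zmpste24, the metalloprotease that matures prelamin A, had 140 at chromosome 4, 120769870 to 120771537. Slfn2, a Schlafen family gene needed for immune cell quiescence in mice, had 132 at chromosome 11, 82878270 to 82879163. The nearest diluent STAT3 region lay 922 bp from the Slfn2 region. Uvrag, a partner of Beclin in autophagy, had 123 at chromosome 7, 106289365 to 106290359. Smek2, a regulatory subunit of protein phosphatase 4, had 123 at chromosome 11, 29071745 to 29072701. Scores of 105 to 114 followed at Fubp3 (a nucleic acid binding protein), Pa2g4 (a growth-regulating protein bound by an ErbB receptor), Cuta, Max (the partner of Myc), Ifrd1 (an interferon-related regulator of development), Prpf6 (a splicing factor) and Maff (a small Maf protein). The region of Smek2 ended before the listed start, and each of the other 11 covered it.

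STAT3 regions of the set were spread nearly evenly around the start. The median midpoint was 51.5 bp downstream (median interval 19.5 to 81 bp), 57.8% of the regions covered the start and 55% (52.3 to 57.7%) had their midpoint downstream of it. The bins next to the start held most, 21% from 0 to 250 bp downstream and 19% from 0 to 250 bp upstream. The 338 diluent-only regions at starts, from a separately called list, had their median midpoint at -172 bp, upstream of it (median interval -256 to -86 bp). Of these, 40.2% (35 to 45.7%) lay downstream, and the fullest bin, with 21.3%, was 250 to 500 bp upstream. Midpoints within 250 bp of the start made up 40.1% (37.5 to 42.8%) of the set and 27.2% (22.5 to 32.3%) of the diluent-only regions. The position was limited to 1 kb by the choice of the regions, and with 1 library each the difference in position between the conditions was not tested. A second start on the opposite strand within 1 kb, the layout of a bidirectional promoter, was present for 10.9% (9.28 to 12.7%) of the set. It was present for 7.05% of 20068 listed starts, which include starts without H3K4me3. A share over starts with H3K4me3 alone is not given, so these shares are not matched for the mark.

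**Figure D2:**
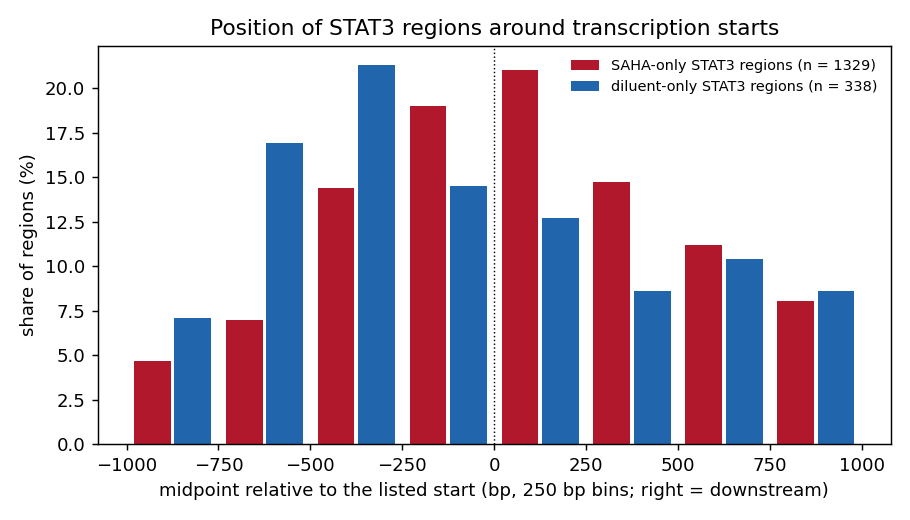
Share of STAT3 regions (%, vertical axis) by the position of their midpoint relative to the listed start (bp, bins of 250 bp, positive downstream), for the 1329 SAHA-only regions (red) and the 338 diluent-only regions at starts (blue). The red bars are highest on both sides of the start (19% and 21%), and the blue bars are highest 250 to 500 bp upstream (21.3%).

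Few of the regions were also called when the SAHA STAT3 library was analysed without a control. Of the set, 63 regions (4.74%, 3.66 to 6.02%) overlapped 1 of its 784 regions called that way, against 2.86% of the farther SAHA-only regions. A single region of the set, at BC099561, overlapped a region that the diluent library gave without a control. Of the set, 0 overlapped a region of the IgG library (0 of 1329 allows up to 0.277%). The set overlaps no listed diluent region and was called against this IgG library, so both low counts partly follow from the choice. The 63 regions had 16 to 45 tags each, with a median of 24, and a fold enrichment over local background of 4.23 to 8.4 (median 5.77), against a median fold of 7.56 for the whole table. Their median score in the list against IgG was 57, and that of the other 1266 regions was 38.3. The 63 were led by Slfn2 (36 tags, 4.97-fold), Smek2 (29 tags, 7.87-fold), Cuta (45 tags, 5.7-fold), Ifrd1 (40 tags, 4.9-fold) and Prpf6 (27 tags, 6.3-fold). They also held Xrcc1, a scaffold of DNA single-strand break repair (33 tags, 4.5-fold), Fancg of the Fanconi anaemia pathway (26 tags, 6.02-fold) and Cox7a2l, an assembly factor of respiratory supercomplexes (32 tags, 5.41-fold). Mrfap1, Synj2, Ftsjd1 and Lrrc8d completed the first 12, with 26 to 37 tags. The regions of Clcn7, Zmpste24 and Uvrag, among the 4 with the highest scores, were not called without a control.

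Most promoters of the set carried H3K4me3, and they carried it in both libraries. An H3K4me3 region overlapped 1187 regions of the set (89.3%, 87.5 to 90.9%) in SAHA and 1180 (88.8%, 87 to 90.4%) in diluent, and 1174 had one in both. At the diluent-only regions at starts the shares were 89.3% in SAHA and 88.5% in diluent. All 85 shared start regions had H3K4me3 in both libraries, and 13.9% of the farther SAHA-only regions had it in SAHA and 12% in diluent. The mark is common at starts in general: 12876 of the 17024 genes named in the lists against IgG had H3K4me3 over a start. That count is by gene and not by STAT3 region. In the set, H3K4me3 was listed in SAHA alone at 13 regions and in diluent alone at 6. The 13 included Gpr56 (an adhesion receptor), Heyl (a Notch-responsive repressor) and Gcgr (the glucagon receptor), with SAHA widths of 1588, 948 and 1004 bp. The 6 included Me1 (malic enzyme) and Atp9b, where the STAT3 region sat at the far edge of the block, at -950.5 and -945.5 bp from the start (negative is upstream). These examples were chosen after their values were seen.

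The share with H3K4me3 was higher among high-scoring regions. The set was split into 4 groups of equal size by score. From group 1 (lowest scores) to group 4 (scores from 49.9 to 143), 85.3%, 85.5%, 89.5% and 97% of the regions had H3K4me3 in SAHA, and 85.3%, 84.3%, 88.6% and 97% had it in diluent. The median width of these H3K4me3 regions was 2848, 2696, 2964 and 3139 bp in SAHA and 2644, 2563, 2761 and 2976 bp in diluent, in the same order. Over 1008 regions, Pearson's r and Spearman's rho between score and SAHA width were both 0.11. These are correlations across regions of the same libraries, which are not independent replicates. STAT3 regions of group 4 were also longer (median 992 bp, against 622 bp in group 1). Their midpoints lay nearer the start (median distance 268 bp, against 371 bp in group 1). The part of length and distance in the H3K4me3 shares was not tested.

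**Figure D3:**
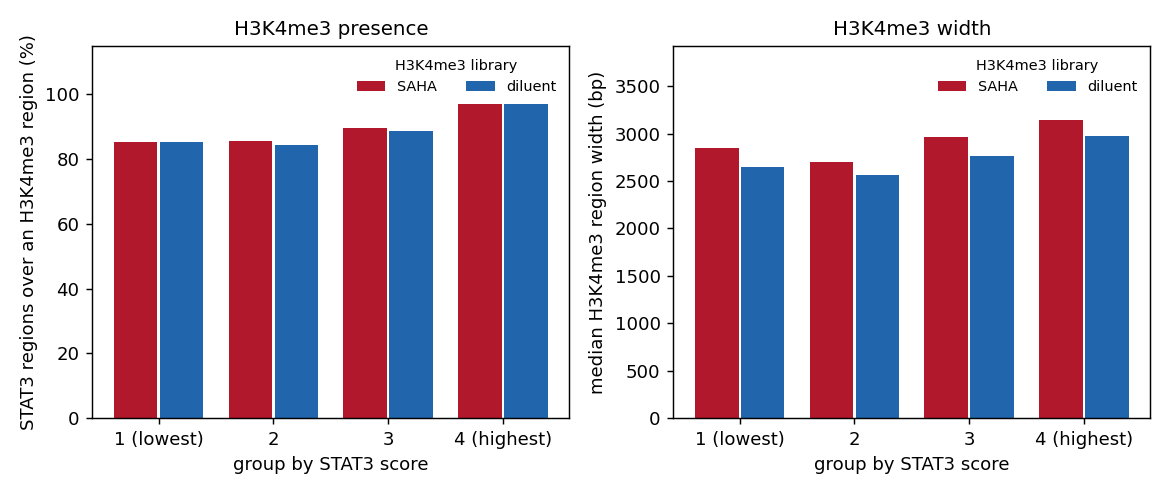
Left, share of SAHA-only start regions (%) that overlap an H3K4me3 region, and right, median width of those H3K4me3 regions (bp), in 4 groups by STAT3 score, with the SAHA H3K4me3 library in red and the diluent library in blue. Group 4, with the highest scores, has 97% with H3K4me3 in both libraries and median widths of 3139 bp in SAHA and 2976 bp in diluent.

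Regions of the set without H3K4me3 numbered 136 (10.2%, 8.66 to 12%). The highest-scoring named ones were at Dock9, an exchange factor for the GTPase Cdc42 (score 62.6), a T cell receptor alpha chain start (62.5), Ncan, the brain proteoglycan neurocan (53.3), and Dkk1, a secreted Wnt inhibitor (53.3). Cd79b, a subunit of the B cell receptor, and Foxa2, a transcription factor of endoderm, were in the set too, with scores of 38.3 and 35.5, and neither had H3K4me3. Lyz2, the lysozyme gene of macrophages and monocytes, was in the set with an H3K4me3 block of 5171 bp in SAHA and 3459 bp in diluent.

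The H3K4me3 blocks at these promoters had a higher median width than start blocks at large, as did those at the other STAT3 regions at starts. In the lists against IgG the median width was 2921 bp (2795 to 2995 bp) in SAHA over 1163 distinct blocks and 2723 bp (2657 to 2808 bp) in diluent over 1155. The medians over all H3K4me3 regions at listed starts were 2413 bp in SAHA (13306 regions) and 2366 bp in diluent (12742 regions). Blocks were matched by overlap, which takes up wide blocks more readily than narrow ones, and the part of this in the difference was not tested. Diluent-only regions at starts had medians of 3018 bp in SAHA and 2944 bp in diluent, and shared start regions had 3695 bp in SAHA and 3229 bp in diluent. Blocks over 5 kb made up 14.4% (12.5 to 16.6%) of those of the set in SAHA, against 9.79% at all listed starts, and 9.26% (7.65 to 11.1%) in diluent, against 6.44%. The shares were higher at the other STAT3 regions at starts, 16.3% in SAHA and 14.1% in diluent at diluent-only regions, and 24.1% in SAHA and 13.3% in diluent at shared regions. Over 1150 blocks the median log2 width ratio, SAHA over diluent, was 0.08 (0.07 to 0.09), and the pairs described below had the same median as all pairs at starts, 0.08.

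Blocks over 10 kb lay at 14 of the 1163 in SAHA (1.2%, 0.66 to 2.01%), where 0.902% of all H3K4me3 regions at listed starts were that wide. In diluent they lay at 9 of the 1155 (0.779%, 0.357 to 1.47%), where 0.251% of all were that wide. The 4 named genes with the widest blocks in the SAHA list were led by Bcl2a1b, an anti-apoptotic gene of the Bcl2 family (16341 bp in SAHA, 9233 bp in diluent), and by Zfp36, which encodes tristetraprolin, a protein that destabilises cytokine mRNAs (14952 bp in SAHA, 9378 bp in diluent). Psap, the precursor of the lysosomal saposins, had 14926 bp in SAHA and 11310 bp in diluent. Ccnd2, cyclin D2, had 13490 bp in SAHA and 8295 bp in diluent. These 4 were picked by their SAHA width, so their smaller widths in diluent are no result. The widest diluent block of the set was at Znfx1, with 10097 bp in SAHA and 13431 bp in diluent, a gene chosen after its values were seen. The Bcl2a1b region lay 932 bp from a diluent STAT3 region, and that gene belongs to a family of near-identical copies, so its reads may be shared between them. At such width 1 called region can hold several neighbouring blocks, and whether a gap was bridged in 1 library and not in the other was not tested.

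Tag counts came from the single-library tables, which hold 86% of the SAHA list's H3K4me3 regions and 91% of the diluent list's, and none of the 122 and 32 regions over 10 kb. Pairs of 1 SAHA and 1 diluent region with counts were present for 1029 regions of the set, as 1008 distinct pairs. The broadest blocks, such as those of Bcl2a1b, Zfp36 and Bcl6, have no pair. Tags per block had a median of 1060 in SAHA (lowest 21, highest 6516) and 1164 in diluent (lowest 21, highest 5549), against medians of 836 in SAHA and 902 in diluent for all 11129 pairs at starts. The most tags were at Mpeg1, a pore-forming protein of macrophages, with 6516 in SAHA and 5549 in diluent over 8625 bp in SAHA and 7226 bp in diluent. Per kb of block the medians were 361 tags in SAHA and 427 in diluent, against 322 in SAHA and 368 in diluent for all pairs at starts. Blocks at other STAT3 regions at starts had like or higher medians. They were 1118 tags in SAHA and 1236 in diluent at diluent-only regions (363 and 437 per kb), and 1377 in SAHA and 1540 in diluent at shared regions (399 and 476 per kb).

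Scaled to filtered tags, the H3K4me3 count at the set was slightly lower in SAHA, as it was at starts in general. The median log2 ratio, SAHA over diluent, was -0.07 (-0.09 to -0.06) over the 1008 pairs, and -0.04 over all pairs at starts. Per kb it was -0.15 (-0.17 to -0.14), and -0.12 over all pairs at starts. At diluent-only start regions the medians were -0.09 and, per kb, -0.18. The interval of the ratio lay below 0 for 380 pairs of the set (37.7%), where the share over all pairs at starts was 30.6%, and above 0 for 167 (16.6%), where it was 21.2%. The interval narrows as tags rise, and the part of the set's higher tag counts in these shares was not tested. Blocks were wider in SAHA in 765 pairs (75.9%, 73.1 to 78.5%), against 71.6% of all pairs at starts. Over the 1008 pairs the tag ratio went with the width ratio (Pearson's r 0.57, Spearman's rho 0.40), and the width enters both. Between the STAT3 score and the tag ratio, Pearson's r was -0.04 and Spearman's rho -0.00.

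**Figure D4:**
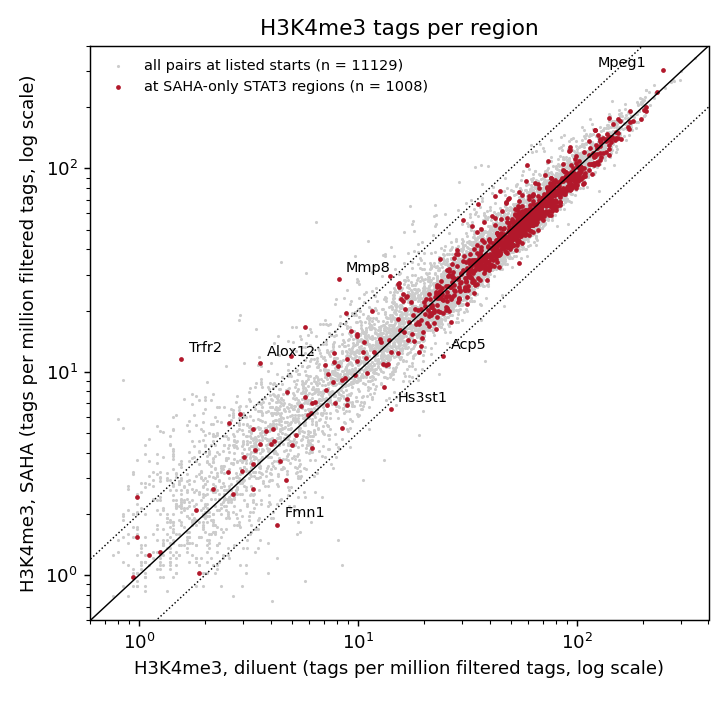
H3K4me3 tags per region in SAHA (vertical) and diluent (horizontal), scaled to each library's filtered tags, both axes log. Red points are the 1008 pairs at SAHA-only STAT3 regions, grey points all 11129 pairs at listed starts, the solid line marks equal values and the dotted lines a 2-fold difference. Most red points lie close to the solid line, and Trfr2 stands farthest above it.

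Differences of at least 2-fold in H3K4me3 tags were rare in the set. They were higher in SAHA at 10 pairs (0.992%, 0.477 to 1.82%), where 2.57% of all pairs at starts were, and lower in SAHA at 3 (0.298%), where 0.611% were. Large ratios arise more readily at blocks with few tags, and blocks of the set had more tags than all pairs at starts. The part of tag count in these shares was not tested. Trfr2, which encodes transferrin receptor 2, had 248 tags in SAHA and 35 in diluent, a log2 ratio of 2.89 (2.38 to 3.44), over blocks of 2481 bp in SAHA and 872 bp in diluent. Mmp8, neutrophil collagenase, had 612 tags in SAHA and 183 in diluent (log2 ratio 1.81, 1.57 to 2.05), over 5073 bp in SAHA and 2254 bp in diluent. Alox12, a lipoxygenase that acts on arachidonic acid, had 237 tags in SAHA and 80 in diluent (1.63, 1.26 to 2.02). Per kb the log2 ratios were 1.38, 0.64 and 0.87 at these 3 genes, so part of each tag ratio went with a wider block in SAHA.

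Ccm2, a scaffold of endothelial junction signalling, had 356 tags in SAHA and 129 in diluent (log2 ratio 1.53). Gcgr had 52 in SAHA and 22 in diluent (1.31), where the diluent block lay beside the STAT3 region and not under it. Gpr162, an orphan receptor, had 256 in SAHA and 111 in diluent (1.27). The other 4 were Mmp12, the macrophage elastase, with 415 tags in SAHA and 198 in diluent, Shd with 120 in SAHA and 58 in diluent, Fbxw10 with 133 in SAHA and 65 in diluent, and Gstt1, a glutathione transferase, with 637 in SAHA and 315 in diluent. The STAT3 scores at the 10 ran from 31.5 to 50.5, the lowest at Mmp8 and the highest at Alox12, so none was among the 12 highest-scoring regions.

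The 3 pairs lower in SAHA were at Fmn1, a formin that assembles actin, Hs3st1, a heparan sulfate sulfotransferase, and Acp5, the tartrate-resistant acid phosphatase of osteoclasts and macrophages. Fmn1 had 38 tags in SAHA and 96 in diluent (log2 ratio -1.27, -1.85 to -0.72). Hs3st1 had 140 in SAHA and 317 in diluent (-1.11, -1.41 to -0.82). Acp5 had 256 in SAHA and 550 in diluent (-1.04, -1.26 to -0.82), over 1528 bp in SAHA and 3838 bp in diluent, and its ratio per kb was 0.29, so its tags per kb were higher in SAHA. The next lower ratios were -0.67 at Kctd6, -0.66 at Snapc5, a subunit of the complex that transcribes small nuclear RNAs, and -0.65 at Gpr135. Per kb, 2 of the 1008 pairs (0.198%) were at least 2-fold higher in SAHA, where 0.521% of all pairs at starts were, and 0 were at least 2-fold lower, where 0.0719% were.

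Across all 17024 listed genes, 7.67% had a region of the set at a start, and 9.36% of the 12876 genes with H3K4me3 over a start did. Diluent-only regions at starts occurred at 1.97% of all listed genes. The 22 gene lists examined were chosen with earlier results of these data known, and their shares are descriptions with counting intervals, not tests. A list of expressed genes is best read against 9.36%, since most of its genes carry H3K4me3.

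Genes known as STAT3 targets had the highest share, 8 of 31 (25.8%, 11.9 to 44.6%). A diluent-only region at a start was present at 0 of the 31 and at 1.97% of all listed genes. With so low a general share, 0 of 31 does not set these genes apart. The 8 were Nfil3 and Bcl6, transcriptional repressors, Icam1, an adhesion molecule of antigen-presenting cells, Sbno2, a corepressor of the interleukin-10 response, Pim3, a kinase, Zfp36, Ccnd1, cyclin D1, and Birc5, survivin. Their STAT3 scores ran from 31.9 at Birc5 to 58.4 at Nfil3, none of them near the top of the list. Nfil3 had a STAT3 region at chromosome 13, 53076658 to 53077666 (mm9). Icam1 had one at chromosome 9, 20820035 to 20820820, with a score of 48, and Bcl6 one at chromosome 16, 23988702 to 23989377, with 46.6.

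H3K4me3 lay at all 8 in both libraries. Bcl6 had 12291 bp in SAHA and 11106 bp in diluent, Icam1 8801 bp in SAHA and 5710 bp in diluent, and Ccnd1 6496 bp in SAHA and 3761 bp in diluent. Sbno2 had 4464 bp in SAHA and 3430 bp in diluent. Pim3 had 3738 bp in SAHA and 3872 bp in diluent, and Nfil3 had 1736 bp in SAHA and 1995 bp in diluent, so blocks were not wider in SAHA at all of them. Only Pim3 and Birc5 had a pair with tags. Pim3 had 1236 tags in SAHA and 1465 in diluent (log2 ratio -0.18), and Birc5 had 1067 in SAHA and 1122 in diluent (-0.01). Summed over all overlapping regions and not scaled to depth, Icam1 had 3632 tags in SAHA and 3051 in diluent. Sbno2 had 1496 in SAHA and 1195 in diluent, so at both genes the count was higher in SAHA, as was the width. In the JAK-STAT pathway 2 of 39 genes had a region of the set (5.13%): Jak3, the kinase of the common gamma chain receptors (score 60.5), and Pias1, a SUMO ligase that inhibits STAT proteins (57.2). Their tag ratios were 0.06 and 0.02, and the interval of each held 0.

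Genes of autophagy and the lysosome followed, with 15 of 79 (19%, 11 to 29.4%). Clcn7 and Uvrag had the scores given above. Vps11, a core subunit of the tethering complexes of endosomes and lysosomes, had 52.6, and Ctsd, the protease cathepsin D, had 49.5. The group also held Lamp1 (41), a lysosomal membrane protein, Npc1 (44), the lysosomal cholesterol transporter, Mcoln1 (34.2), a lysosomal calcium channel, and Atg13 (42.6) and Ulk3 of the kinases and partners that start autophagy. Further members were Pik3c3, the lipid kinase partner of Uvrag, and the proton pump subunits Atp6v0c, Atp6v1d and Atp6v1e1. The H3K4me3 block was 10017 bp in SAHA and 5951 bp in diluent at Ctsd, and 9907 bp in SAHA and 5016 bp in diluent at Uvrag. Neither of these SAHA blocks had a tag count, and a bridged gap was not tested. At Clcn7 the block was 5224 bp in SAHA and 5355 bp in diluent, with 1922 tags in SAHA and 2212 in diluent (log2 ratio -0.14, -0.23 to -0.05).

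Cell cycle genes numbered 15 of 84 (17.9%, 10.4 to 27.7%). The highest scores were at E2f7, a repressor of the E2F family (71.6), Ccnd2 (71.3), Anapc13, a subunit of the anaphase-promoting complex (68.1), and Cdk4, the kinase of D-type cyclins (68). Cdkn1b, the inhibitor p27, Gadd45b, Ccna2 and Aurka were in the set as well, with scores of 45, 51, 55.9 and 40.5, so both drivers and inhibitors of the cycle were among them. The block at Cdkn1b was 11535 bp in SAHA and 5727 bp in diluent, where the median log2 width ratio of the set was 0.08. Whether a gap was bridged there in SAHA alone was not tested. At Cdk4 the tags were 995 in SAHA and 1006 in diluent (log2 ratio 0.05, -0.08 to 0.18), and at Ccna2 534 in SAHA and 659 in diluent (-0.24, -0.41 to -0.07).

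For genes that make, process and degrade RNA and protein, the interval of each list's share held 9.36%. The shares of cytosolic ribosomal proteins (5.88%, 1.94 to 13.2%) and chaperones (6.32%, 2.35 to 13.2%) were below it. Translation factors and tRNA synthetases had 11 of 62 (17.7%, 9.2 to 29.5%), led by Eif2b4, part of the exchange factor of initiation factor eIF2 (62.4), and the glutamine and tryptophan tRNA synthetases Qars (56.9) and Wars (56.7). RNA polymerase II and Mediator genes had 13 of 80 (16.2%, 8.95 to 26.2%), among them Gtf2h3 of the general factor TFIIH (82), Ccnk, a cyclin of transcription kinases (61.6), and Polr2a, the largest polymerase subunit (36). Splicing and mRNA processing genes had 13 of 98 (13.3%, 7.26 to 21.6%), with Prpf6, Hnrnph1 (74), Prpf38b (53) and Hnrnpf (51) highest. The mitochondrial ribosome and respiratory chain had 19 of 148 (12.8%, 7.91 to 19.3%), led by Cox7a2l (82.7) and Cox7a2 (72.7). Ubiquitin and proteasome genes had 35 of 325 (10.8%, 7.62 to 14.7%) and Rab, Arf and Ras family GTPases 14 of 125 (11.2%, 6.26 to 18.1%).

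**Figure D5:**
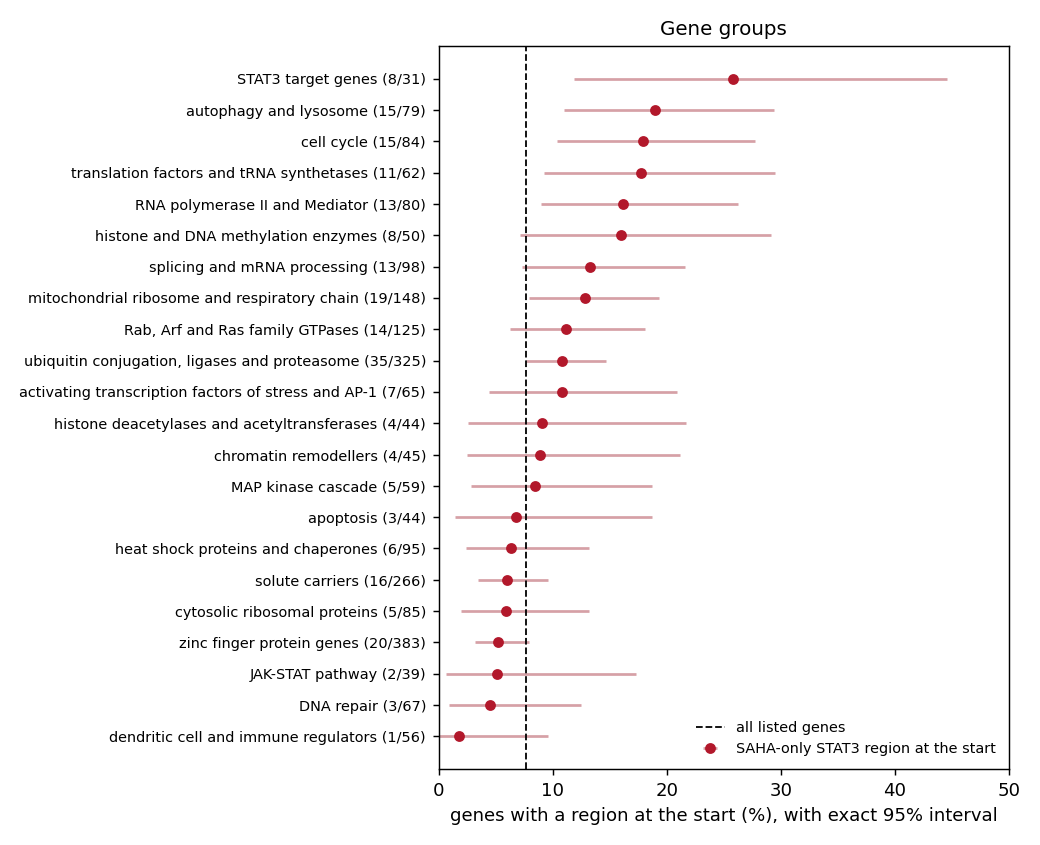
Share of the genes of each of 22 lists (%) with a SAHA-only STAT3 region at a start, with exact 95% intervals (bars, counting error only) and the count in brackets. The dashed line is the share over all listed genes, 7.67%, and STAT3 target genes (25.8%) and dendritic cell and immune regulators (1.79%) are the ends of the order.

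For the lists of chromatin regulators, the interval of each share held 9.36%. Histone and DNA methylation enzymes had 8 of 50 (16%, 7.17 to 29.1%). These were led by Tet2, which oxidises methylated cytosine (38.4), and the histone demethylases Kdm6a (35.4) and Kdm3b (33.5). The H3K4me3 block at Tet2 held 2140 tags in SAHA and 2156 in diluent (log2 ratio 0.05), and at Kdm6a 2504 in SAHA and 3151 in diluent (-0.27, -0.34 to -0.19). Of the deacetylases, acetyltransferases and their corepressors 4 of 44 had a region (9.09%), among them Hdac3 (32), Rcor1 (30.9) and Hdac4 (30.2). These scores were below 33, the lower quartile of the set. Hdac3 had 1292 tags in SAHA and 1274 in diluent (0.09, -0.03 to 0.20), and Hdac4 had 954 in SAHA and 1102 in diluent (-0.14, -0.27 to -0.02). Chromatin remodellers had 4 of 45 (8.89%).

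Dendritic cell and immune regulators had the lowest share, 1 of 56 (1.79%, 0.0452 to 9.55%), and the interval held 7.67% and 9.36%. A diluent-only region was present at 5 of the 56 (8.93%) and at 1.97% of all listed genes. These are small counts from 1 library per condition, and the difference between them was not tested. The single gene was Cxcl10, an interferon-induced chemokine that attracts T cells, with a STAT3 region of score 55.1 at chromosome 5, 92777641 to 92778204 (mm9), over the start. Its H3K4me3 block held 558 tags over 3040 bp in SAHA and 345 tags over 2407 bp in diluent. The log2 ratio was 0.76 (0.56 to 0.96), and 0.42 per kb. Immune genes outside the list were in the set, such as Il1rn, the interleukin-1 receptor antagonist, with a score of 41.7 and 1425 tags in SAHA against 794 in diluent (0.91, 0.78 to 1.04), an example chosen after its values were seen. Shares below 7.67% were also found for DNA repair (3 of 67), zinc finger protein genes (20 of 383) and cytosolic ribosomal proteins (5 of 85). So they were for solute carriers (16 of 266), heat shock proteins and chaperones (6 of 95) and apoptosis (3 of 44). The interval of each of these lists held 7.67%. That of zinc finger protein genes (3.22 to 7.95%) lay below 9.36%, and those of the others held it. The MAP kinase cascade had 5 of 59, and activating transcription factors of stress and AP-1 had 7 of 65, with Max, Maff, Atf4 (61.7) and Egr1 (59.3) highest.

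The limits of the set were sharp only by definition. Just inside 1 kb lay the regions at Chpt1 (999.5 bp, score 31) and Shprh (998.5 bp, 31.4), and just outside lay those at Bambi (1004 bp, 38) and Mrm1 (1005 bp, 30.7). The smallest gaps to a diluent region among the set were 9 bp at Rnf13 and 10 bp at AK144632, and the smallest overlaps that kept a region out were 5 bp at Mlxip and 32 bp at BC020402. The lowest score of 30 was held by the regions at Cd93 and Man2c1. A diluent STAT3 region lay within 1 kb of 17 regions (1.28%) and within 10 kb of 93 (7%), and the median gap to the nearest one was 159782 bp.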

How the data were processed

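The submitters' processing notes name BWA (version not stated) and the build mm9. MACS 1.4.0rc2 had called each library's regions with no control, keeping at most 2 duplicate tags per position and a p-value of at most 1e-05, per the file headers. Those deposited tables give a tag count and a fold enrichment (a ratio over local background) per region. The authors' deposited lists against IgG give a MACS score and 1 gene per region and have no header, and their calling settings were not stated. The lowest score was 30 in the STAT3 lists and 50 in the H3K4me3 lists. Here coordinates were made 1-based, gene symbols turned into dates by a spreadsheet were restored, and overlap of 1 bp counted as shared. H3K4me3 pairs were SAHA and diluent regions that overlapped 1 to 1 and had a tag count, matched by both ends, in their own single-library table. Their tag ratio was scaled to filtered tags, with an exact conditional binomial 95% interval. Shares have exact Clopper-Pearson intervals, and medians have intervals from order statistics. Width was also taken from the lists against IgG, added after seeing that the single-library tables hold no region over 10 kb. On simulated counts for the 11129 pairs at starts, the interval lay above 0 for 199 of the 200 regions given a 2-fold rise, and 95.3% of intervals held the true ratio.

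Of the 1306 genes, 1211 matched RefSeq symbols and 739 had a single promoter window (RefSeq, GRCm38.p6). No coordinates were converted between builds, and motifs were searched on both strands. The tools were bedtools 2.31.1, matplotlib 3.10.9, pandas 2.3.3, scipy 1.17.1, numpy 2.4.6 and Python 3.11.15. Named genes are the 12 highest scores, the 6 largest and 6 smallest tag ratios among pairs with at least 50 tags in 1 library, up to 4 per gene list by score, the 4 widest H3K4me3 blocks, the 4 highest-scoring regions without H3K4me3, up to 12 called without a control and those next to each limit. Predicted and placeholder names were passed over, and other genes named were chosen after their values were seen. The regions and gene lists were chosen with earlier results of these data known. Alternatives varied the distance, the gap that counts as shared, the score limit, the scaling, the source of the H3K4me3 regions and, for the gene lists, the genes counted. Some items are not reported here.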

Additional observations from a re-analysis of the deposited data

How the results depend on the processing

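The number of regions was 1329, 918 with midpoints within 500 bp, 1829 within 2 kb, 1312 when a gap of up to 1000 bp counted as shared, 1329 without regions over IgG regions and 327 with a score of at least 50, which raised the median score to 60.2 by its construction. The share with H3K4me3 in SAHA was 92.3% within 500 bp, 79.8% within 2 kb, 96.9% at scores of at least 50, 87.1% when at least 50% of the STAT3 region had to be covered and 86% with the single-library table. In diluent it was 91.4%, 78.4%, 96.9% and 86.4% under the first 4 of these. The median log2 tag ratio was -0.15 per kb, -0.14 with raw tags and -0.03 when scaled to tags inside regions, and so kept its sign under each scaling. Median widths were 3077 bp in SAHA and 2791 bp in diluent at scores of at least 50, and in diluent 2722 bp when all overlapping regions were summed and 2723 bp over all regions of the list against IgG, an alternative added after seeing the data. Under these alternatives, 34 of the recomputed values stayed within their interval or count limit and 18 moved, and no value turned its sign. The 34 include the region counts of 918 and 1829, so the count limit was a loose one and the size of the set did depend on the distance. Counting only genes with H3K4me3 over a start left the shares of all 22 gene lists within their intervals, but nearly all genes of most lists carry the mark, so this alternative could change little. No paired analysis was possible because the labels give no replicate numbers and each group has 1 library.

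Counting error is the only error measured here. Scores under 35, near the limit of 30, were held by 35.4% of the regions, the STAT3 libraries differed in depth, and the control came from diluent cells, so the absence of a region from the diluent list does not show that STAT3 was absent there. The part that depth and the control have in the number of SAHA-only regions was not tested.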
